A study of Mus musculus with 21 samples.

Results

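Part 7 and part 6 are neighbouring pieces of the dissected presomitic mesoderm (PSM) of the mouse, and their comparison rests on 6 of the 21 arrays of the study, 3 of part 7 and 3 of part 6, taken by their titles. The PSM of CD-1 embryos, an outbred strain, was divided into 7 pieces and each piece was profiled on 3 Affymetrix arrays, which the labels call biological replicates. The part 7 and part 6 groups shared all other labels: untreated embryos with no allele or agent named, a stage given as E8.5 among the characteristics and as 9.0 dpc in the protocol, dissection after pancreatin (2 mg/ml for 1 min), Trizol extraction and biotin-labelled cRNA from 2 rounds of amplification. Each array holds a small piece of tissue, and by the design text 1 embryo gave both its left and its right PSM and a second embryo a further set, with no word on the replicate numbers of either. Arrays may therefore share an embryo, so that the p-values hold for the spread of these arrays alone. The labels do not say which part number lies at which end of the tissue.

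The PSM is the unsegmented paraxial mesoderm on either side of the neural tube, whose rostral end is pinched off into somites at regular intervals. Notch signalling drives a clock of oscillating transcripts there, and Tbx6, Mesp2 and their targets place the segment boundary and set the rostral and caudal compartments of the next somite. Ripply proteins, which are induced by Mesp2 and recruit corepressors to T-box factors, end this programme as the somite forms, and the somite then starts its dermomyotome, sclerotome and muscle programmes.

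Values are log2(signal + 16) of the deposited MAS5 signal, on which a signal of 0 stands at 4, and a difference is part 7 minus part 6 on that scale, where changes of low genes look smaller than they are. Signal means per array ran from 151 to 154 over the 21 arrays and medians from 12.9 to 13.7, and no 2 arrays were identical. For the labelled tissue, 11 markers of paraxial mesoderm were all on the array, and all exceeded the median signal in at least 1 of the 6 arrays. So did all but 1 of 11 blood, 3 of 15 endothelial, 3 of 12 neural tube and 1 of 8 neural crest markers. Passing this mark therefore does not identify the tissue. Of 18193 genes with a probe set, 12143 passed the filter on low signal and were tested.

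With all arrays, no gene passed an adjusted p of 0.05 between part 7 and part 6 (limma, 0 of 12143 genes, 0%), and 578 genes, or 4.76%, had an unadjusted p under 0.05. The lowest adjusted p was 0.664. Fmod, which encodes the small proteoglycan fibromodulin, had the lowest unadjusted p (9.91e-05) at a difference of 1.69 ± 0.34 (SE, 3 arrays each). The arrays of the parts did not overlap in 894 genes (7.36%), with part 7 above part 6 in 505 (4.16%) and below it in 389 (3.20%). No other alternative that kept part 7 replicate 2 called a gene, with the replicate number as a block included. In simulated data of this size with 100 changed genes per size of change, the fit recovered 73.9% of changes of 1 log2 unit and 97.2% of changes of 2. There every part 7 array had the same change and independent noise, so these shares do not hold for a change that a part 7 array lacks.

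Part 7 replicate 2 stood apart from the other part 7 arrays. Over all genes tested, its root mean square difference was 0.29 log2 units from the part 6 arrays of the other replicate numbers and 0.38 from the other part 7 arrays. Part 7 replicate 1 was 0.43 from part 6 and 0.34 from the other part 7 arrays, and part 7 replicate 3 was 0.44 from part 6 and 0.39 from the other part 7 arrays. Part 6 replicate 1 was also slightly nearer the neighbouring part, at 0.33 from part 7 and 0.35 from the other part 6 arrays. Only part 7 arrays of other replicate numbers enter these values, so part 6 replicate 1 was set against part 7 replicates 2 and 3. Part 6 replicate 2 was set against part 7 replicates 1 and 3, and the values of the part 6 arrays are thus not on equal terms. Part 6 replicates 2 and 3 were 0.41 and 0.41 from part 7, and 0.31 and 0.39 from the other part 6 arrays. Between arrays of the same replicate number, 244 genes differed by more than 1 log2 unit in replicate 1 (2.01%), 39 in replicate 2 (0.321%) and 230 in replicate 3 (1.89%). Each array was also left out in turn, and placed between the means of the remaining arrays on the 100 genes with the lowest p in the fit without it, with 0 at the part 6 mean and 1 at the part 7 mean. The median place was 0.07 for part 7 replicate 2, which lay nearer the part 6 mean in 96 of 100 genes, against 0.79 for part 7 replicate 1 and 0.55 for part 7 replicate 3. The part 6 arrays had median places of 0.43, 0.40 and 0.52 on genes chosen with part 7 replicate 2 included.

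**Figure D1:**
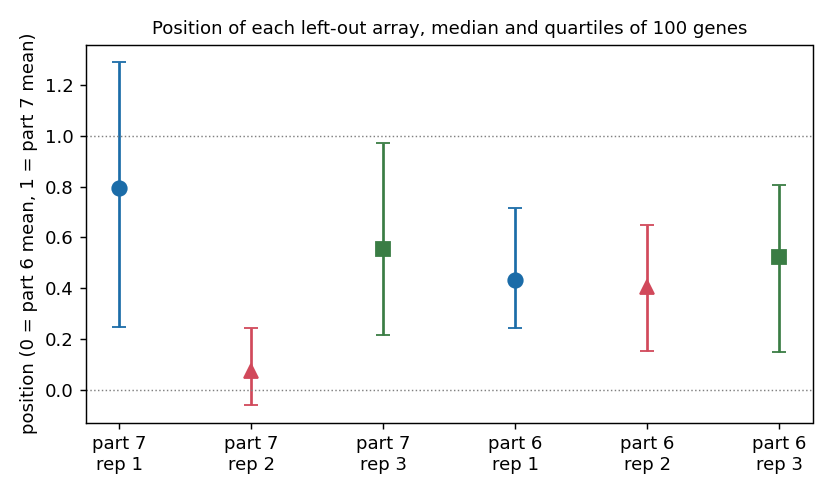
Place of each left-out array between the part 6 mean (0) and the part 7 mean (1) of the remaining arrays, as the median and quartiles over 100 genes, with colours and symbols for the replicate numbers. Part 7 replicate 2 lies at 0.07, below all other arrays.

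The comparison was therefore made with and without part 7 replicate 2, a choice made because of how that array looked. The calls without it rest on 2 part 7 arrays against 3 of part 6 and describe these arrays. Without it, 61 of 12143 genes (0.502%) passed in limma, of which 23 were higher in part 7 (0.189%) and 38 lower (0.313%). Differences ran from 0.93 to 3.06 among the higher genes and from 0.73 to 4.42 in size among the lower ones. Of the 61 genes, 58 had an unadjusted p under 0.05 with all arrays (limma). With replicate 2 counted, 23 had no overlap between the arrays of part 7 and part 6, beside 7.36% of all genes tested. The other arrays of both parts had chosen the 61 genes, so that both counts follow in part from that choice and are descriptions. With quantile normalization 12 genes were higher and 37 lower, so that the share of higher genes was 24.5% of 49 calls, against 37.7% of 61. Replicate numbers were taken to pair the arrays, which the labels do not state. With the number as a block 226 genes (1.86%) were called without part 7 replicate 2, 110 higher and 116 lower, all 61 among them. Every result given with the block rests on that pairing. In whole pieces of tissue, fewer cells of a type and less RNA per cell cannot be told apart.

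Genes that act at the forming segment boundary were lower in 2 of the 3 part 7 arrays. Ripply2 had 4.88, 9.87 and 4.52 log2 units in part 7 replicates 1, 2 and 3, against 9.32, 10.52 and 7.54 in part 6. In linear signal, Ripply2 read 13.5, 918 and 7.0 in part 7, against 624, 1452 and 170 in part 6, so that part 7 replicates 1 and 3 lay below every part 6 array and replicate 2 lay among them. Its difference was -2.70 ± 1.09 (SE) with all arrays (limma, unadjusted p = 0.0229) and -4.42 ± 0.87 without part 7 replicate 2 (limma, adjusted p = 0.0286). Epha4, an Eph receptor of the segment boundary, had 7.68, 9.68 and 7.41 in part 7, against 9.71, 9.90 and 9.14 in part 6. The array of replicate 2 was the only one of part 7 inside the part 6 range, and without it Epha4 fell by 2.04 ± 0.44 (limma, adjusted p = 0.0428). Dll3, a divergent Notch ligand needed for segmentation, had 7.66, 8.93 and 7.63 in part 7, against 8.95, 8.93 and 9.02 in part 6, and fell by 1.32 ± 0.21 without part 7 replicate 2 (adjusted p = 0.00452). Differences at the other probe sets of Epha4 ran from -1.83 to -1.08 without that array.

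All 14 measured genes of the segment determination list had a negative difference with all arrays, with a median of -0.87, beside a median of 0.02 over all genes tested, where 5515 of 12143 were negative. Without part 7 replicate 2, 3 of the 14 fell (Ripply2, Epha4 and Dll3), 0 rose and 11 did not pass, and the list median was -1.29. With the replicate block added, 6 of the 14 fell. The mean of the list per array was 7.01, 8.49 and 6.99 in part 7 replicates 1, 2 and 3, against 8.57, 8.67 and 8.16 in part 6. Replicates 1 and 3 of part 7 lay below all part 6 arrays, and replicate 2 lay between part 6 replicates 3 and 1. Between arrays of the same replicate number, 13, 10 and 13 of the 14 genes were lower in part 7 for replicates 1, 2 and 3, with medians of -1.28, -0.13 and -1.08. Ripply1, a relative of Ripply2, had no probe set of its own here.

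**Figure D2:**
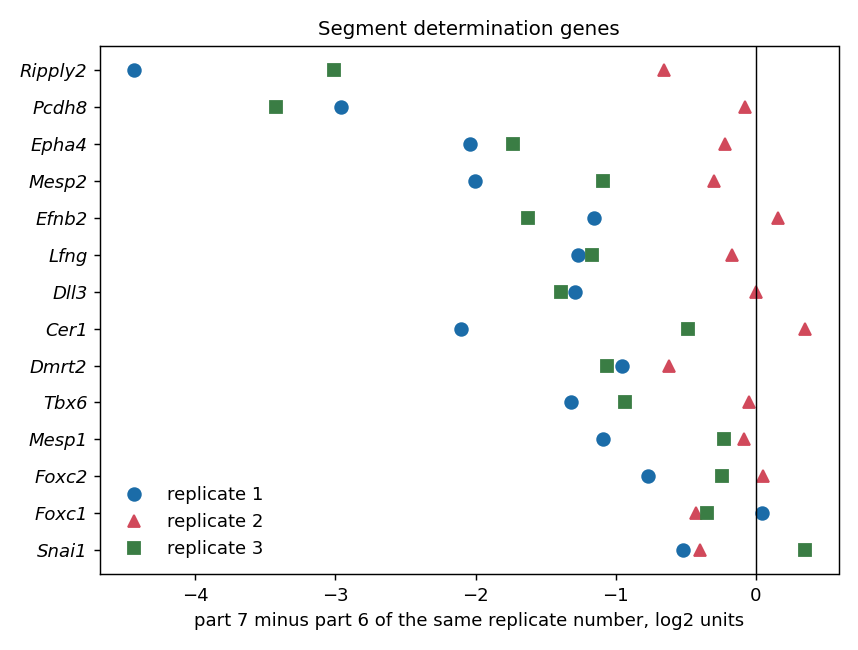
Difference between the part 7 and part 6 arrays of the same replicate number, in log2(signal + 16), for 14 segment determination genes. Replicates 1 and 3 reach -4.44 and -3.01 in Ripply2, and replicate 2 stands at -0.65 there and within 0.65 of 0 in the other genes.

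Members of that list that did not pass without the block were spread in size. Pcdh8, the paraxial protocadherin of the segment boundary, had 9.21, 12.01 and 8.53 in part 7, against 12.17, 12.09 and 11.95 in part 6. Its difference without part 7 replicate 2 was -3.20 ± 0.78 (limma, adjusted p = 0.0984), and with the replicate block added it passed (adjusted p = 0.0107). Mesp2, which sets the boundary and the rostral identity of the segment, had 4.69, 6.13 and 4.70 in part 7, against 6.70, 6.43 and 5.78 in part 6. Mesp2 had a signal of 9.9 in both part 7 replicates 1 and 3, and the difference was -1.61 ± 0.78 without replicate 2, which did not pass (adjusted p = 0.594). Tbx6, the T-box factor above Mesp2, had 5.16, 6.05 and 5.13 in part 7, against 6.48, 6.10 and 6.06 in part 6, so that all part 7 arrays lay below all part 6 arrays. Its difference without replicate 2 was -1.07 ± 0.24 (adjusted p = 0.0565, and 0.00533 with the block). Lfng, the glycosyltransferase that modifies Notch, Cer1, a secreted antagonist of Nodal and BMP, and Efnb2, an ephrin ligand, had differences of -1.40, -1.27 and -1.47 without replicate 2 and did not pass, though Efnb2 did with the block (adjusted p = 0.0163). Snai1, a repressor of cadherins, had a difference of -0.04.

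Notch pathway genes gave 4 calls without part 7 replicate 2. Nrarp, a Notch target that feeds back on the Notch complex, had 8.20, 11.02 and 8.21 in part 7, against 10.99, 11.02 and 10.85 in part 6. In Nrarp the replicate 2 arrays of part 7 and part 6 were equal to the last digit given, and the other part 7 arrays were at differences of -2.79 and -2.64 from their partners. Without replicate 2 Nrarp fell by 2.74 ± 0.26 (limma, adjusted p = 2.16e-05). Notch1, the receptor, had 10.19, 11.84 and 10.22 in part 7, against 11.85, 11.72 and 11.96 in part 6, and fell by 1.64 ± 0.26 (adjusted p = 0.00452). Heyl, a transcriptional repressor induced by Notch, had 6.36, 7.13 and 5.87 in part 7, against 7.51, 7.23 and 7.03 in part 6, and fell by 1.14 ± 0.24 (adjusted p = 0.0427). Dll3 was the remaining call. The effector gene Hes5 had 4.82, 8.22 and 4.60 in part 7, against 9.09, 9.07 and 6.76 in part 6, a difference of -3.60 ± 0.89 without replicate 2 that passed only with the block (limma, adjusted p = 0.0987, and 0.0455 with the block).

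Of the 21 measured Notch pathway and clock genes, 15 had a negative difference with all arrays and 6 a positive one, with a median of -0.45. Without part 7 replicate 2, 4 fell, 0 rose and 17 did not pass, and the median was -0.62. With the block added 6 fell and 1 rose, Hes5 and the repressor gene Hey1 among the falls and Bcl9l as the rise. Core components were among those that did not pass, and had small differences without that array: -0.01 for Rbpj, the DNA-binding partner of Notch, -0.17 for its coactivator Maml1 and -0.10 for Notch3. Hes1 and Hes6, of the same family as Hes5, had differences of 0.11 and 0.46, and Hes7, the repressor of the segmentation clock, -0.83. The Delta ligand gene Dll1 had 6.53, 7.51 and 7.53 in part 7, against 7.07, 7.88 and 8.01 in part 6. The groups overlapped, while each part 7 array was below the part 6 array of its own number, by differences of -0.54, -0.36 and -0.48. Of the caudal polarity list, which shares members with the Notch list, 5 of 6 genes had a negative difference and 1 fell without part 7 replicate 2 (3 with the block), with a median of -0.87 with all arrays.

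**Figure D3:**
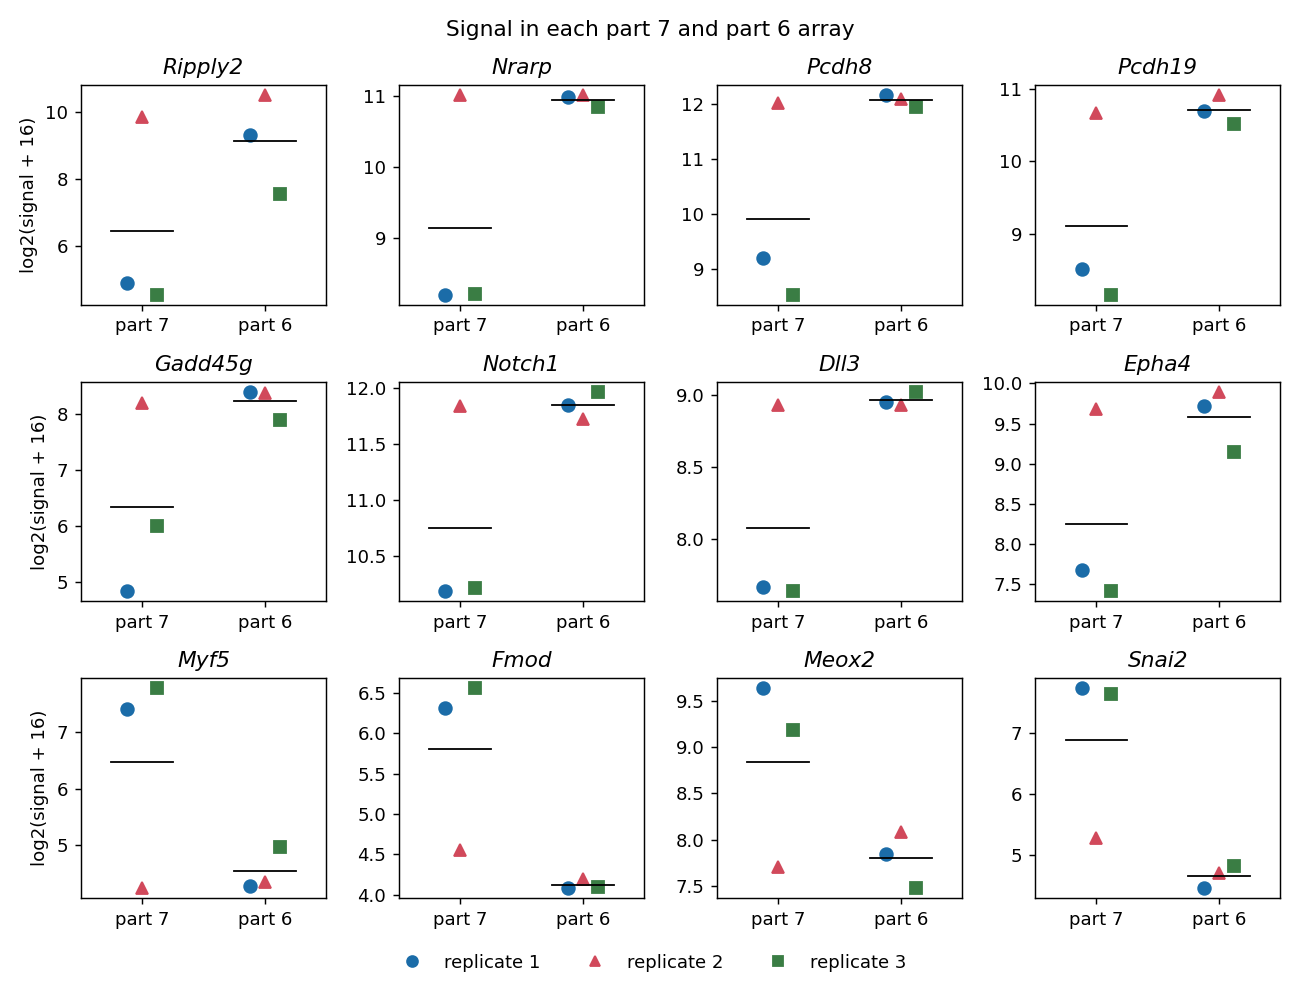
Log2(signal + 16) of 12 genes in the part 7 and part 6 arrays, a symbol for each replicate number and a bar at each mean of 3 arrays. In Nrarp the part 7 arrays read 8.20, 11.02 and 8.21, and in Myf5 7.42, 4.24 and 7.78, and the replicate 2 array of part 7 lies with the part 6 arrays in both.

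Promoters of 3 genes that were lower and 1 that was higher in part 7 replicates 1 and 3 are shown for 2 short motifs of the pathways above. The RBPJ core (TGGGAA or TTCCCA on either strand) and a T-box half-site (TCACAC or GTGTGA) were searched in the 250 bases before the start of each gene, in the RefSeq promoters of GRCm38.p6. Each sequence gives the 250 bases before the start, 5′ to 3′ on the strand of the gene, with its 1 match in capitals. They lie at chr9:87015287-87015536 on the plus strand for Ripply2, and on the minus strand at chr7:28301786-28302035 for Dll3, chr1:77515089-77515338 for Epha4 and chr10:107486135-107486384 for Myf5.
Ripply2: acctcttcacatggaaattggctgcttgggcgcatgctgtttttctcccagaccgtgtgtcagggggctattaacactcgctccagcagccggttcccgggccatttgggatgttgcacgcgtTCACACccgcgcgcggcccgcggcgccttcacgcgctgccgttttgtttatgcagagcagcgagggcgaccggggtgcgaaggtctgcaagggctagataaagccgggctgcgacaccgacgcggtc
Dll3: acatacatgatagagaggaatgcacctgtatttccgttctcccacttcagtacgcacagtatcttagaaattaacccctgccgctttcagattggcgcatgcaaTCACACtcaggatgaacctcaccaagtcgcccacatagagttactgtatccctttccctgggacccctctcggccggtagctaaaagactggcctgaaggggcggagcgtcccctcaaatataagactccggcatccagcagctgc
Epha4: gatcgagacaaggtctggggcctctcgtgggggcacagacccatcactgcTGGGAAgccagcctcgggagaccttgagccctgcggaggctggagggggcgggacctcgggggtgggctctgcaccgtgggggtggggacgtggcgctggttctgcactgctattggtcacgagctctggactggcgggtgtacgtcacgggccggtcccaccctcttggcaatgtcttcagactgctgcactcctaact
Myf5: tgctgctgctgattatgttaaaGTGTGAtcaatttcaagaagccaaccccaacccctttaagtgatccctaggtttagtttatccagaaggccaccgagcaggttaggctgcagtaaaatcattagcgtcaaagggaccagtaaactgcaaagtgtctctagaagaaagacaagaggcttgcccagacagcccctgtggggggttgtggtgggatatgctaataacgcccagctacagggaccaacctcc
The capitals mark a T-box half-site that begins 127 bases before the start in Ripply2, 146 in Dll3 and 228 in Myf5, and an RBPJ core that begins 200 bases before it in Epha4. The RBPJ core was in 5 of 41 promoters (12.2%) of the 29 lower genes that were matched, in 6 of 18 (33.3%) of the 17 matched higher genes, and in 21.6% of 32851 promoters in the table. The T-box half-site was in 4 of the 41 (9.76%), in 1 of the 18 (5.56%) and in 12.3% of all promoters. The promoters shown were not picked by a rule, and each holds a match, while most promoters of the called genes hold neither motif. They are therefore not typical of the called genes. Such a match is a description of the letters.

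Other genes that fell without part 7 replicate 2 had the same arrangement of arrays. Pcdh19, a protocadherin, had 8.52, 10.66 and 8.16 in part 7, against 10.69, 10.92 and 10.52 in part 6, and fell by 2.37 ± 0.34 (limma, adjusted p = 0.00195), and differences at its other probe sets were -2.04 and -2.34. Gadd45g, a growth arrest and stress gene, had 4.83, 8.20 and 6.01 in part 7, against 8.41, 8.38 and 7.90 in part 6. Gadd45g fell by 2.81 ± 0.39 without replicate 2. Jun, a subunit of the AP-1 transcription factor, had 4.71, 7.81 and 5.94 in part 7, against 7.81, 7.62 and 7.54 in part 6, and in both genes part 7 replicates 1 and 3 lay below every part 6 array. Jun was 1 of 13 stress and immediate early genes measured and the only one called, with a list median of 0.07 without replicate 2. Abca1, the cholesterol exporter, fell by 2.62 ± 0.39, while its other probe sets, near the value of a 0 signal, differed by -0.14 and -0.02.

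Lef1, the nuclear effector of Wnt signalling, was lower in all 3 part 7 arrays, at 6.88, 8.48 and 7.60, against 8.54, 8.52 and 9.14 in part 6. Replicate 2 of part 7 missed the part 6 range by 0.04, and without it Lef1 fell by 1.49 ± 0.27 (limma, adjusted p = 0.016). Of 13 Wnt target genes Lef1 was the only call (2 with the block), and Axin2, a feedback inhibitor of the pathway, had a difference of -0.93 that did not pass (adjusted p = 0.182). Further called differences were -2.63 for Tmcc3, -2.22 for the filamin-binding gene Rflna, -1.70 for the intermediate filament gene Synm, -1.63 for Ackr3, a scavenging chemokine receptor, -1.59 for the ubiquitin ligase gene Mylip, -1.52 for the matrix protein gene Sned1 and -1.51 for the zinc finger repressor gene Zbtb18. In Ackr3 part 7 replicate 2 had 7.87, above all part 6 arrays at 7.39, 7.35 and 6.24. Arrays did not overlap in 13 of the 38 lower genes with part 7 replicate 2 counted, among them Lef1, Synm and Sned1. Over all genes tested, part 7 lay below part 6 without overlap in 3.20%, and the 38 genes were chosen on the other arrays.

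Genes that rose without part 7 replicate 2 included Myf5 and Meox2, regulators of muscle and somite identity, and Fmod and Pcolce, whose products act in the extracellular matrix. Myf5, the first of the myogenic determination factors, had 7.42, 4.24 and 7.78 in part 7, against 4.28, 4.35 and 4.97 in part 6. In linear signal Myf5 read 155, 2.8 and 203 in part 7, against 3.4, 4.4 and 15.3 in part 6, and part 7 replicate 2 was the lowest of the 6 arrays. The rise was 3.06 ± 0.31 (limma, adjusted p = 5.59e-05). Meox2, a homeobox regulator of the somite, had 9.63, 7.70 and 9.18 in part 7, against 7.85, 8.08 and 7.48 in part 6, with replicate 2 inside the part 6 range. It rose by 1.61 ± 0.27 (adjusted p = 0.00844), by the same amount at its other probe set.

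Fmod had 6.32, 4.56 and 6.56 in part 7, against 4.08, 4.20 and 4.09 in part 6, so that every part 7 array lay above every part 6 array. Its rise without part 7 replicate 2 was 2.32 ± 0.22 (limma, adjusted p = 2.16e-05), and its other 5 probe sets were higher by 0.91 to 1.17. Pcolce, an enhancer of procollagen processing, had 8.15, 6.60 and 7.38 in part 7, against 5.88, 6.10 and 5.83 in part 6, again with no overlap, and rose by 1.83 ± 0.30 (adjusted p = 0.00578). Plod1, a lysyl hydroxylase of collagen, rose by 1.15 ± 0.18, and Bmper, a secreted binding protein of BMPs, by 1.31 ± 0.25. Of 18 genes of the extracellular matrix list, to which Fmod, Pcolce and Plod1 do not belong, 0 were called (1 with the block, Col1a2), 14 had a positive difference with all arrays and the median was 0.24. Sparc, a matrix glycoprotein, had 7.40, 7.09 and 7.48 in part 7, against 7.13, 6.44 and 6.51 in part 6. Its values overlapped by a small margin, and it did not pass without replicate 2 (difference 0.75, adjusted p = 0.186).

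Other rises without part 7 replicate 2 were 1.94 for Hsd11b2, which inactivates glucocorticoids, 1.75 for Itih5, a hyaluronan-binding protein, 1.61 for the stress-responsive gene Ndrg1, 1.60 for the zinc finger gene Klf15, 1.36 for the tetraspanin gene Tspan4, 1.35 for Oaf, 1.30 for the transcription factor gene Ebf3 and 1.28 for Slc66a2. Klf15 had 5.92, 4.78 and 6.26 in part 7, against 4.58, 4.15 and 4.73 in part 6, and did not overlap. Itih5 had 9.45, 6.99 and 9.28 in part 7, against 7.71, 7.33 and 7.82 in part 6. There part 7 replicate 2 was the lowest of the 6 arrays. Of 23 higher genes, 10 had no overlap with all 6 arrays counted. Over all genes tested, part 7 lay above part 6 without overlap in 4.16%, and the 23 genes were chosen on the arrays other than part 7 replicate 2.

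Snai2, a zinc finger repressor known for roles in the neural crest and in the onset of cell migration, had 7.73, 5.28 and 7.64 in part 7, against 4.46, 4.71 and 4.83 in part 6. All part 7 arrays lay above all part 6 arrays, and the difference was 3.02 without replicate 2 (limma, adjusted p = 0.0677, and 0.0108 with the block). At the other probe set of Snai2 the difference was 0.94. The summed linear signal of 8 of 9 neural crest markers, Snai2 among them, was 451, 306 and 527 in part 7, against 209, 314 and 243 in part 6, and Tfap2b was under the median signal in all 6 arrays. Without Snai2 the sum was 255, 283 and 344 in part 7, against 203, 304 and 230 in part 6, with overlap. Sox10, a defining gene of the neural crest, had 5.34, 5.05 and 5.15 in part 7, against 4.67, 4.78 and 4.52 in part 6. Its difference without replicate 2 was 0.58 and did not pass (limma, adjusted p = 0.293). The other probe sets of Sox10 had the opposite sign, at -0.26 and -0.16, and all of its values were near that of a 0 signal. The part of neural crest cells in these values was not tested.

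Genes of the differentiating somite had differences of both signs. Of 13 measured genes of that list, 1 rose without part 7 replicate 2 (Meox2), 0 fell and 12 did not pass (1 and 1 with the block), and the median difference with all arrays was -0.03. Fgf18, a ligand of the fibroblast growth factor family, and Met, the receptor of hepatocyte growth factor, had differences of -1.38 and -0.73 without that array and did not pass, though Fgf18 did with the block. Meox1, the partner of Meox2, had 11.42, 11.67 and 11.11 in part 7, against 11.56, 11.59 and 11.60 in part 6. Tcf15, needed for somites to become epithelial, had 11.21, 11.17 and 10.59 in part 7, against 11.31, 11.05 and 11.01 in part 6. Pax3, an early dermomyotome gene, had 10.18, 10.07 and 9.84 in part 7, against 10.01, 10.17 and 10.001 in part 6. For Meox1, Tcf15 and Pax3 the arrays overlapped and the difference lay between -0.18 and -0.03. Uncx, of the caudal compartment of the somite, and Tbx18, of the rostral compartment, had differences of 0.06 ± 0.36 and 0.11 ± 0.52, and Aldh1a2, which makes retinoic acid, of -0.01 ± 0.30. The signs for Pax3, Tcf15, Uncx, Tbx18 and Aldh1a2 changed when some single arrays were left out.

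Of 12 dermomyotome and myogenic genes, Myf5 rose and Myocd, a coactivator of muscle genes, fell by 1.23 without part 7 replicate 2, and 10 did not pass. Met had 9.50, 9.88 and 9.60 in part 7, against 10.21, 10.22 and 10.40 in part 6. Its arrays did not overlap, and the difference did not pass (-0.62 ± 0.37, limma, unadjusted p = 0.112). Of 6 sclerotome genes 0 were called. Pax9, a sclerotome gene, had 5.83, 5.09 and 5.97 in part 7, against 5.40, 4.77 and 5.68 in part 6, where the groups overlapped and each part 7 array was above the part 6 array of its own number. Its difference did not pass with or without the block, and Pax1 and Nkx3-2 did not pass the filter on low signal.

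Signalling lists other than Notch gave at most 1 call without part 7 replicate 2. Of 8 Hedgehog pathway genes 7 had a positive difference with all arrays, with a median of 0.23, and 0 were called without part 7 replicate 2 (1 with the block, the coreceptor gene Boc). Gli1, a direct target of the pathway, had 5.67, 5.61 and 6.48 in part 7, against 5.24, 4.80 and 5.62 in part 6, and Ptch1, the receptor and target, had 8.89, 9.49 and 10.75 in part 7, against 8.62, 8.27 and 10.07 in part 6. In both genes each part 7 array was above the part 6 array of its own number, replicate 2 included, while the groups overlapped. Bmper was the only call among 15 BMP pathway genes. Fst, which binds activins and BMPs, had 8.18, 6.92 and 9.03 in part 7, against 6.41, 7.10 and 7.80 in part 6, and passed without replicate 2 only with the block (limma, difference 1.50, adjusted p = 0.0997, and 0.00762 with the block). Fgf18 had 8.19, 9.60 and 8.03 in part 7, against 9.55, 9.58 and 9.34 in part 6, and likewise passed only with the block (adjusted p = 0.141, and 0.0107 with the block). Lists of 14 FGF feedback targets and 12 retinoic acid pathway genes had 0 calls, and median differences of -0.19 and 0.01 with all arrays.

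House-keeping programmes and Hox genes gave no call either. The 21 S and M phase genes had a median difference of 0.00 with all arrays, the 19 glycolysis and hypoxia genes of 0.02 and the 18 ribosome biogenesis genes of 0.01, close to the 0.02 of all genes. Without part 7 replicate 2, none of these lists held a called gene (0 each). Hoxb1, of the first paralogue group, had 9.58, 10.13 and 9.40 in part 7, against 10.21, 10.12 and 9.93 in part 6. Hoxd1 had 7.08, 7.48 and 7.59 in part 7, against 8.12, 8.0 and 8.71 in part 6, with no overlap and a difference of -0.89 ± 0.40 (limma, unadjusted p = 0.0388). Hoxc9 went the other way, also with no overlap and a difference of 0.54 ± 0.20. Its linear signal was 308, 223 and 247 in part 7, against 147, 204 and 168 in part 6. A positive difference with all arrays was found in 3 of 10 genes of paralogues 1 to 4, 3 of 8 of paralogues 5 to 8 and 8 of 10 of paralogues 9 to 13. In the 3 Hox lists, of 10, 8 and 10 genes, 0 passed without part 7 replicate 2, and with the block Hoxb1 and Hoxd10 did.

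Replicate 2 was also used to read genes chosen without it. With replicate 2 left out of every part, 16 genes passed in limma (0.132%), of which 4 were higher and 12 lower in part 7, and 14 were among the 61. In the replicate 2 arrays of part 7 and part 6, which that fit did not use, the difference had the same sign in 9 of the 16, in 3 of the 4 higher genes and in 6 of the 12 lower ones. The median ratio of the replicate 2 difference to that of replicates 1 and 3 was 0.04. Pcdh8 had -3.19 ± 0.22 (SE) from replicates 1 and 3 and -0.08 in replicate 2, Notch1 -1.70 and 0.11, and Myf5 2.97 and -0.11. Pcolce, at 1.91 and 0.50, had the highest replicate 2 difference of the 4 higher genes. Apcdd1, a Wnt inhibitor named here after its values were seen, was the furthest of the 7 genes with the opposite sign, at -0.93 and 0.62. Over the 61 genes called without part 7 replicate 2, that array was nearer the part 6 mean in 60, with Ptprz1 as the exception, and these genes were chosen with the array left out, so that the count is a description.

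**Figure D4:**
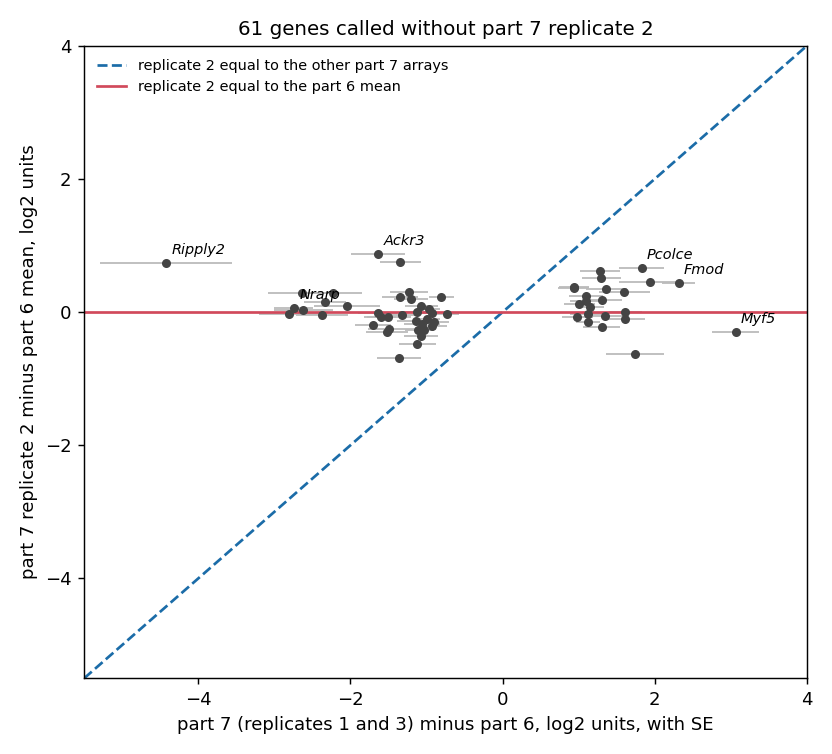
For 61 genes called without part 7 replicate 2, the difference of part 7 replicates 1 and 3 from the part 6 mean, with its SE, on the horizontal axis, and that of part 7 replicate 2 on the vertical axis, both in log2 units. Replicate 2 was nearer the part 6 mean in 60 of the genes, and its difference ran from -0.69 in Ptprz1 to 0.88 in Ackr3. On the horizontal axis Ripply2 is at -4.42 and Myf5 at 3.06.

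Markers of other tissues varied between these arrays as well. The summed linear signal of 11 of 12 blood markers was 7574, 12730.5 and 6664 in part 7 replicates 1, 2 and 3, against 11599, 12005 and 11234 in part 6. Part 7 replicates 1 and 3 were the lowest and replicate 2 the highest of the 6, as they were in Nrarp, while in Notch1 replicate 2 lay inside the part 6 range. Hbb-bh1, an embryonic globin, had 11.09, 12.34 and 10.68 in part 7, against 12.09, 12.24 and 12.19 in part 6, and Hba-a1 was under the median signal in all 6. Of 10 blood genes tested, 8 had a negative difference and 0 were called without part 7 replicate 2 (2 with the block). The summed signal of 11 paraxial mesoderm markers was 9936, 15003 and 8056 in part 7, against 15128, 15198 and 13845 in part 6. Gut endoderm markers, 14 of 14 on the array, summed to 94.2, 87.1 and 969 in part 7, against 94.5, 60.0 and 183 in part 6, with Foxa2, Krt19, Spink1 and Trh under the median signal in all 6. Endothelial markers, 15 of 15, summed to 340, 132 and 534 in part 7, against 358, 84.6 and 85.3 in part 6, with Pecam1, Cdh5 and Tie1 under it. Of 14 endothelial genes tested, 13 had a positive difference with all arrays and 0 were called without part 7 replicate 2. Between arrays of the same number their median differences were -0.13, 0.13 and 1.18 for replicates 1, 2 and 3. Neural tube markers, 12 of 12, summed to 1333, 1369 and 1345 in part 7, against 1280, 1399 and 1413 in part 6. Of 8 neural tube genes tested, 4 had a negative difference with all arrays, and without part 7 replicate 2 only Olig2 was called, while 7 did not pass. Olig2 had 4.16, 4.94 and 4.03 in part 7, against 5.05, 4.97 and 5.60 in part 6, with no overlap and near the value of a 0 signal. Its difference without part 7 replicate 2 was -1.11 ± 0.18 (limma, adjusted p = 0.00487). The part of these cells in the differences was not tested.

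Ratios of 3' to 5' probe signal, which read RNA integrity and amplification, overlapped between the parts. On the log2 scale the actin ratio was 3.65, 3.73 and 3.87 in part 7, against 3.999, 3.30 and 3.64 in part 6, and the Gapdh ratio was 3.55, 3.90 and 3.58 in part 7, against 3.80, 3.37 and 3.46 in part 6. Part 7 replicate 2 lay inside the part 6 range for actin and had the highest Gapdh ratio of the 6.

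Single arrays had genes of their own. The replicate 2 array of part 7 exceeded the other 5 arrays by more than 1 log2 unit in 2 genes and was below them by that much in 0. These were Hoxd13, a homeobox gene of the last paralogue group, at 7.04, with 5.02 as the next highest array, and the caudal homeobox gene Cdx4, at 5.79, with 4.60 as the next highest. Hoxd13 averaged 10.14 ± 0.51 in part 1 and 5.25 ± 0.87 in part 5, and Cdx4 9.32 ± 0.33 and 5.52 ± 1.13 (SD, n = 3 each). In part 5 replicate 2 was the highest array too, at 6.25 in Hoxd13 and 6.81 in Cdx4. Part 7 replicate 3 exceeded the other 5 arrays in 12 genes, among them Afp at 9.18, Ttr at 6.90 and Krt8 at 6.68, all of the gut endoderm list, and Col1a1 at 6.63. Afp, the fetal liver and yolk sac protein gene, was high in replicate 3 of part 1 (10.73), part 2 (11.08) and part 3 (10.61) as well, and had 6.40 in part 6 replicate 3.

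Read over all 7 parts, the genes of this step had different courses. Mesp2 had means of 4.58, 4.66, 5.25, 8.29, 8.14, 6.31 and 5.17 from part 1 to part 7, and Ripply2 of 4.54, 4.42, 4.65, 7.39, 9.91, 9.13 and 6.42. Ripply2 thus had its highest mean 1 part above that of Mesp2, although the arrays of part 4 for Mesp2 ran from 6.67 to 10.51 and those of part 5 for Ripply2 from 8.32 to 11.09. Notch1 had its highest mean in part 6, at 11.85, and Nrarp had means between 10.47 and 11.34 in parts 1 to 6 and 9.14 in part 7. Of the 38 lower genes, read without part 7 replicate 2, 17 had their highest mean in part 5, 11 in part 6, 6 in part 4, 3 in part 2 and 1 in part 1, and 17 had their lowest in part 7 and 14 in part 1. Of 23 higher genes 21 had their highest mean in part 7, and Bmper and 9930012K11Rik in part 1. Part 7 replicates 1 and 3 chose these genes and also give the part 7 means used here. The counts for part 7 therefore follow in part from that choice and are descriptions. With all arrays, Pcolce had means of 7.71, 5.94 and 7.38 in parts 1, 6 and 7, and Meox2 of 4.44, 7.80 and 8.84.

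**Figure D5:**
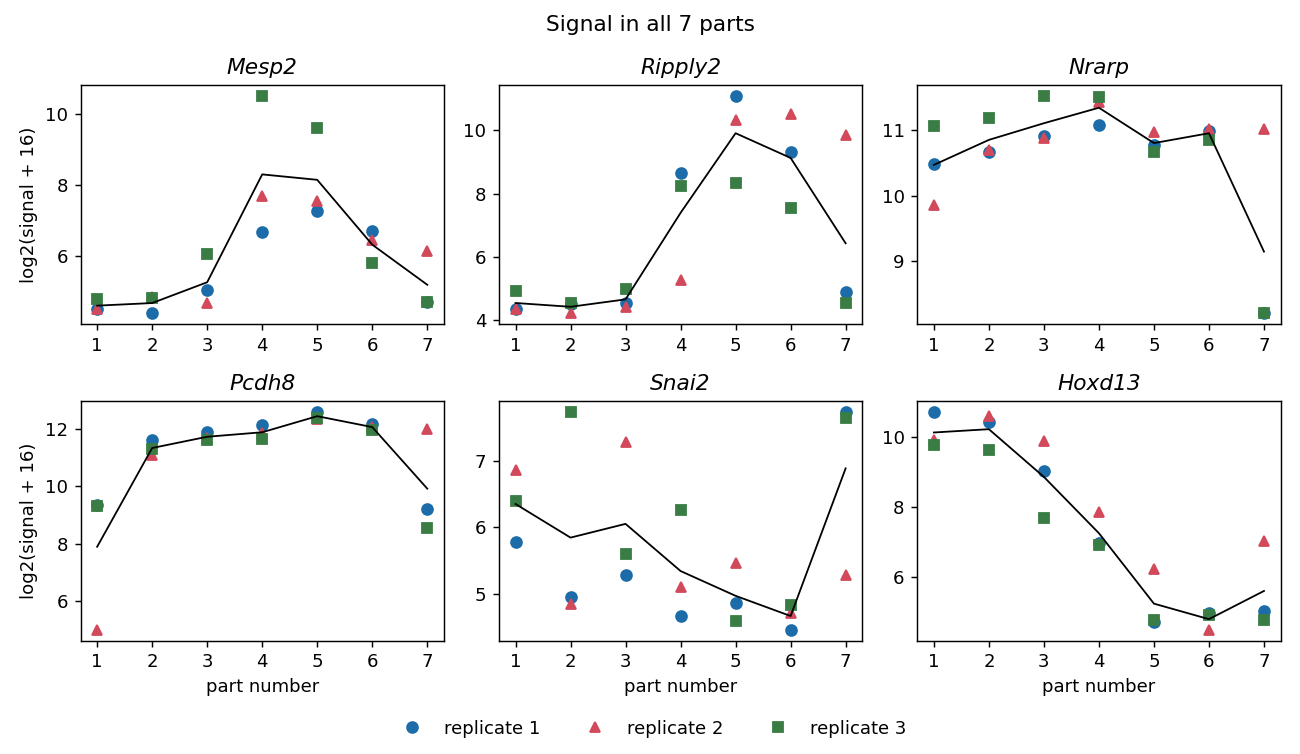
Log2(signal + 16) of 6 genes in all 21 arrays by part number, where the line joins the means of the parts and each replicate number has its own symbol. Ripply2 has its highest mean, 9.91, in part 5, and part 7 replicate 2 lies above the other part 7 arrays in Mesp2, Ripply2, Nrarp, Pcdh8 and Hoxd13 and below them in Snai2.

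The step from part 6 to part 7 was also set against the step from part 5 to part 6, as the difference between both steps. The part 6 arrays enter both steps, so that a high part 6 mean alone makes this difference more negative, and a low one more positive. With all arrays 0 genes passed (limma), and 401 had an unadjusted p under 0.05. Without part 7 replicate 2, 9 genes passed (0.0741%), 2 with a positive and 7 with a negative difference of steps. With replicate 2 left out of every part, 0 passed. Fmod and Myf5 were the positive ones, at 2.26 ± 0.35 and 2.91 ± 0.51. Sox6, a transcription factor of cartilage and muscle, had -2.80 ± 0.40 (adjusted p = 0.0104) and means of 7.39, 9.35 and 8.89 in parts 5, 6 and 7. Sim1, a transcription factor of the dermomyotome, had -2.15 ± 0.36 and means of 6.98, 8.31 and 7.69. The others were Nrarp (-2.90), Jun (-2.99), Gper1 (-2.80), Sned1 (-2.79) and Smad3 (-1.07), a transducer of TGF-beta signals. Replicate 2 of part 7 lay beside the highest part 6 array in Nrarp, above all part 6 arrays in Sox6 and Gper1, at 9.66 and 7.88, and below all of them in Sim1, Smad3 and Sned1, at 8.06, 10.46 and 6.46.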

How the data were processed

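Each deposited value is the linear intensity of 1 probe set. The authors computed it with MAS5, as the submitters' processing notes record. Its version and the scaling target were not given in the sources used here. That scaling hides a shift of most genes together, and low MAS5 values are noisy. Detection calls were not used here, and amplification over 2 cycles can distort levels. The number of arrays, not a depth, limits the precision.

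Of 45101 probe sets, 64 were controls, 9160 carried no symbol in GEO's annotation of the array, 932 carried more than 1 and 34945 carried 1, of which 34884 were found in the RefSeq table of assembly GRCm38.p6. The probe set with the highest mean over all arrays stood for each of 18193 genes. Genes were kept at a signal of at least 13.3, the median of all values, in at least 3 arrays, which left 12143. Values were log2(signal + 16). Parts were compared in limma 3.58.1 (R 4.3.3) with a variance trend and Benjamini-Hochberg adjustment at 0.05, in 1 fit over all 21 arrays and 7 parts with 14 residual degrees of freedom (13 without part 7 replicate 2). The fits were tested on simulated data of 12143 genes, and with all arrays 4.68% of calls were false. Without part 7 replicate 2 the recovery was 61.2% for changes of 1 log2 unit and 95.8% for changes of 2, with 5.46% of calls false. In the simulation the noise was independent between arrays and every part 7 array had the same change. In the data part 7 replicate 2 was left out because of how it looked, so these shares do not hold for the 61 calls.

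Replicate numbers come from the titles. Deviations from the part means correlated between parts 7 and 6 by 0.33, 0.33 and 0.56 for numbers 1, 2 and 3, between parts 7 and 5 by 0.32, 0.20 and 0.53, and between parts 6 and 5 by 0.42, 0.29 and 0.57, and the numbers were taken to pair the arrays. The main fit has no block. The members, gene lists and tests were chosen with earlier results of these data known, that part 7 replicate 2 resembles part 6 included. Genes named are, by rule, the 15 largest called differences each way (filled from the fit without part 7 replicate 2), a fixed set of segmentation and somite genes, up to 4 members of each list, and called genes of the difference between steps. Other list members with their values and Apcdd1, Bcl9l, Hes1, Hes6, Hey1, Id2, Maml1, Notch3, Rbpj and Snai1 were chosen after values were seen. The alternatives changed the pseudocount (1 or 64), the filter (none, or the 75th percentile), the scaling (quantile or median), the variance trend, the weights of arrays, the choice of probe set (their mean, or each alone), the parts in the fit, the block (fixed or random replicate number) and the arrays, left out by replicate or singly.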

Additional observations from a re-analysis of the deposited data

How the results depend on the processing

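The comparison of part 7 with part 6 called 0 genes under every alternative run except without replicate 2 in every part (16) and without part 7 replicate 2 (61), so that counts with replicates or arrays left out ran from 0 to 61. With the replicate block 0 were called as well (lowest adjusted p = 0.177), and the lowest adjusted p under settings without a call was 0.0577, with no filter. The 61 calls without part 7 replicate 2 became 33 with a pseudocount of 1, 92 with one of 64, 38 with no filter, 32 with a filter at the 75th percentile, 32 from a fit of only the parts compared, 226 with the replicate block and 186 with a random replicate block, and 6 to 51 with a further replicate or array left out. Those 6 were without replicate 1, and 12 were called without part 7 replicate 1 and 21 without part 7 replicate 3. Without part 6 replicate 1, 2 or 3 the counts were 28, 26 and 51, and without replicate 3 in every part 37. For the difference between both steps, which called 0, the count was 1 with a pseudocount of 1, 3 with 64, 1 with no filter, 1 with every probe set alone, 1 with the replicate block and 1 with the random block, and 0 to 9 with arrays left out. On 20 genes the median place of part 6 replicate 1 was 0.35 and that of part 6 replicate 2 was 0.32, and on 500 genes that of part 6 replicate 1 was 0.58. Part 7 replicate 2 stood at 0.02 on 20 genes and 0.09 on 500. Single changes to the fit with all arrays were read for 142 named genes tested, with every probe set alone not applied to single genes. Of these genes 36 were called in some such setting, each without replicate 2 or without part 7 replicate 2, and 19 changed sign. Genes that passed only with the block added to the fit without part 7 replicate 2, such as Tbx6 and Snai2, are not in this count. The cause of these changes was not tested. The comparison rests on 3 arrays of each part, MAS5 signal near 0 is noisy, and genes read as low in part 7 may be at the limit of the array there.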

Other observations

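Some genes outside the comparisons above had values that differed by array. Sema3a, a secreted guidance cue, had 6.46, 4.68 and 6.57 log2 units in part 7, against 4.70, 5.30 and 5.16 in part 6, and part 7 replicate 2 was the lowest of the 6 arrays. Its difference was 1.46 without that array (limma, adjusted p = 0.0789), and it passed with the replicate block added. Cdkn1c, an inhibitor of cell cycle kinases, had 10.04, 9.54 and 10.78 in part 7, against 9.84, 8.98 and 9.72 in part 6, higher in part 7 in all 3 pairs of the same number. Its difference without part 7 replicate 2 was 0.90 and passed only with the replicate block (limma, adjusted p = 0.225, and 0.0447 with the block). Gadd45b, a relative of Gadd45g, had 5.36, 6.11 and 5.41 in part 7, against 6.78, 6.55 and 6.12 in part 6, where the highest part 7 array was just under the lowest of part 6. Its difference without part 7 replicate 2 was -1.10 and passed only with the block (limma, adjusted p = 0.0789, and 0.0256 with the block). Cyp26a1, which degrades retinoic acid, had 5.16, 5.18 and 5.03 in part 7, against 4.15, 4.20 and 4.43 in part 6, with no overlap and near the value of a 0 signal, and did not pass (difference 0.86 ± 0.64, limma, unadjusted p = 0.194).

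Id2 and Id3 encode inhibitors of basic helix-loop-helix factors and respond to BMP. Id2 had 10.67, 8.15 and 9.62 in part 7, against 9.47, 10.01 and 8.48 in part 6, and Id3 8.98, 7.71 and 7.96 in part 7, against 9.19, 9.58 and 7.49 in part 6. Between arrays of the same number, Id2 was higher in part 7 by 1.20 and 1.14 in replicates 1 and 3 and differed by -1.86 in replicate 2. Neither passed in any fit given here, and Id2 was chosen after its values were seen.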
